A study of Danio rerio with 12 samples.

Results

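The regions described here are 178 stretches of open chromatin that had a higher mean accessibility in zebrafish embryos exposed to TDCIPP and also in embryos exposed to decitabine, each set against its own solvent controls. They come from 24956 regions that the tables of both compounds share by at least 1 base, out of 35040 regions in the TDCIPP table and 45019 in the decitabine table. A region was kept for comparison when its mean level was at least 6.5 in the TDCIPP table and at least 4.5 in the decitabine table, which left 11930 kept-level pairs. Among these, the members had a treated minus DMSO difference of at least 0.3 with each compound, so they make up 1.49% of the kept-level pairs. Level means mean normalized reads per library in a region, on a log2 scale, and a difference of levels is a log2 ratio. The members were chosen by these measured differences and levels of both contrasts, so their sizes are given as a description without a test.

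The assay was ATAC-seq, which uses Tn5 transposase to insert sequencing adapters into DNA free of nucleosomes. It was done on whole wild-type embryos (AB/Tuebingen) collected at 6 hours after fertilization. The 12 libraries form 4 groups of 3: embryos in 3.12 µM TDCIPP, embryos in 100 µM decitabine (DAC), and a separate set of embryos in 0.1% DMSO for each compound. Eggs were placed in the compound just after spawning, around 50 to a well, and each library was made from cells of many embryos. The labels do not say whether the 3 libraries of a group came from separate clutches. In the DAC table the treated column is headed 5AzaC, which usually stands for the related analog 5-azacytidine, whereas the labels name decitabine. Both tables hold group means without values of single libraries, so no spread between libraries can be given, and the deposited p-values are the sole measure of replicate error. In a whole embryo, a larger share of cells with an open region and a more open region in each cell cannot be told apart.

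At this stage the embryo has recently switched on its own genome and has begun gastrulation, and promoters and enhancers are becoming accessible. DNA methylation and the histone variant H2A.Z mark different parts of the early zebrafish genome, with H2A.Z found at unmethylated promoters and methylation on most of the rest, repeats included. TDCIPP, tris(1,3-dichloro-2-propyl) phosphate, is an organophosphate flame retardant, and decitabine is a cytidine analog that traps DNA methyltransferases on DNA. The series title concerns competition for H2A.Z when repetitive elements are released from silencing, and the members are regions with a higher mean accessibility after both exposures. Coordinates are on GRCz11. Which genes or repeats lie at them was not analysed here, since the gene table used follows another build.

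The 2 criteria were very unequal. A TDCIPP difference of at least 0.3 was met by 522 kept-level pairs (4.38%), while a DAC difference of at least 0.3 was met by 6176 (51.8%). The median DAC difference over all kept-level pairs was 0.31, so the DAC criterion lies at about the middle of the distribution of these pairs. The median TDCIPP difference of these pairs was -0.03. Over all regions of each table, whatever their level, the medians were 0.1 for DAC and 0.01 for TDCIPP. The members are 34.1% of the TDCIPP-higher pairs (95% Clopper-Pearson interval 30.04 to 38.34, counting error only) and 2.88% of the DAC-higher pairs.

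The share meeting the DAC criterion was lower among TDCIPP-higher pairs than among the others on the deposited scale. The shares were close once differences were centred, which also moves both cutoffs. Of the 11408 kept-level pairs without a TDCIPP difference of that size, 52.6% met it (Clopper-Pearson interval 51.7 to 53.5), against the 34.1% among TDCIPP-higher pairs. With each table centred on its median over the kept-level pairs, the shares were 11.1% and 12%, and with the median of each level class taken off they were 10.7% and 12%. Taking off the DAC median raises the DAC cutoff on the deposited scale, so the centred shares describe the upper part of the DAC differences. On the deposited scale, weighting the other pairs to the level classes of the TDCIPP-higher pairs gave 50.5%. In each of 10 classes of level the share was lower among TDCIPP-higher pairs, from 45.8% against 49.3% in class 5 to 14.3% against 66.3% in the highest class. By count, 517 pairs were lower with TDCIPP by at least 0.3 and higher with DAC, which is 61.8% of the 836 TDCIPP-lower pairs. Another 78 pairs were higher with TDCIPP and lower with DAC, which is 14.9% of the TDCIPP-higher pairs. Lower with both by at least 0.3 were 13 kept-level pairs. Beside these counts, 86.35% of all kept-level pairs had a DAC difference above 0, so the counts are not compared with one another. Among TDCIPP-higher pairs, 61.49% had a DAC difference above 0, so their share was lower at that cutoff too, without centring. Regions are not independent replicates, and these shares carry no test across libraries.

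**Figure D1:**
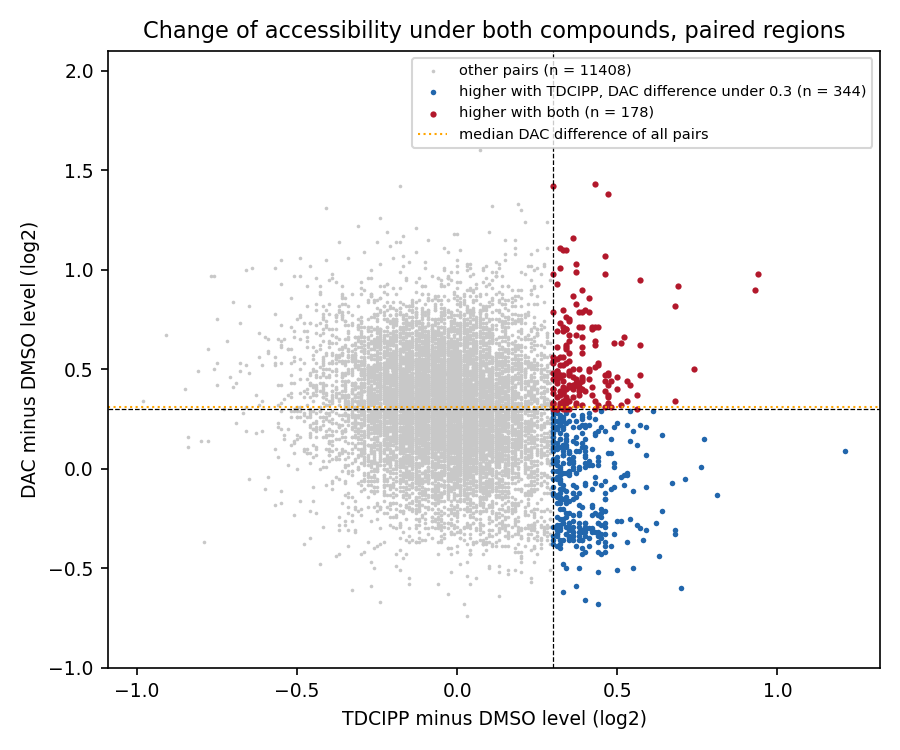
Treated minus DMSO level (log2) with TDCIPP on the horizontal axis and with DAC on the vertical axis, 1 point per kept-level pair. The 178 members (red) and the 344 TDCIPP-higher pairs that missed the DAC criterion (blue) lie right of the vertical dashed line. The members lie right of and above the dashed lines at 0.3, and the dotted line marks the median DAC difference of all pairs, which is 0.31.

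Among the members, the TDCIPP difference ranged from 0.30 to 0.94 with a median of 0.36, and the DAC difference from 0.30 to 1.43 with a median of 0.47. Most differences were small: the smaller of a member's 2 differences had a median of 0.35 and an upper quartile of 0.39. The median TDCIPP difference was also 0.36 in pairs that met the TDCIPP criterion alone. The median DAC difference was likewise 0.47 in pairs that met the DAC criterion alone. At the TDCIPP criterion, 16 members had a difference of exactly 0.30 and 12 pairs that met the DAC criterion had 0.29 and stayed out. At the DAC criterion the same counts were 8 members and 6 pairs. Just inside lay a region of chromosome 5 at 38199874 to 38201198 (TDCIPP 0.30, DAC 0.31) and a region of chromosome 15 at 47783739 to 47785512 (0.30 and 0.30). Others just inside lay on an alternate scaffold of chromosome 4 at 204549 to 206337 (0.30 and 0.32) and on chromosome 20 at 18144117 to 18145538 (0.35 and 0.30). Just outside lay regions of chromosome 23 at 9738709 to 9740274 (0.29 and 0.57) and chromosome 20 at 28395643 to 28396542 (0.29 and 0.34). The DAC criterion left out regions of chromosome 3 at 9159356 to 9160288 (0.61 and 0.29) and chromosome 13 at 40192546 to 40193303 (0.45 and 0.29). Without the level minima, 668 pairs met both differences, and 86 of them failed the TDCIPP level alone, 84 the DAC level alone and 320 both.

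By the authors' deposited table for TDCIPP, 6 members were called at an adjusted p under 0.05, while 0.362% of all its regions were called higher. In the authors' deposited table for DAC, no member passed, since the DiffBind adjusted p was 1 throughout, and the share called there was 0.0%. At an unadjusted p under 0.05, the authors' deposited tables gave 126 members for TDCIPP and 9 for DAC, against 4.77% and 0.755% of all regions higher at that p. The folds that chose the members also enter these p-values, so nothing is read from the counts.

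The largest joint rise lay on chromosome 19, where 2 neighbouring members stood side by side. The region at 25744330 to 25745719 went from a level of 7.04 in DMSO to 7.98 with TDCIPP and from 4.48 to 5.46 with DAC. Its differences were 0.94 and 0.98, with an adjusted p of 3.26e-07 for TDCIPP and an unadjusted p of 0.0632 for DAC in the authors' deposited tables. The second region, at 25737820 to 25740810, went from 7.71 to 8.40 with TDCIPP and from 5.60 to 6.52 with DAC. Its TDCIPP difference of 0.69 passed there too, at 0.00011 (adjusted p, authors' deposited table). These 2 regions lie within 7.9 kb, and no other kept-level pair lies between them.

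Next by the smaller difference stood a region of chromosome 9 at 30442347 to 30444248, which went from 6.38 to 7.31 with TDCIPP and from 6.26 to 7.16 with DAC. Its TDCIPP difference of 0.93 was close to that of the leading region, but its adjusted p in the authors' deposited table was 0.16, and its unadjusted DAC p was 0.127. Its control levels in the 2 tables were nearly equal, 0.12 apart, whereas over the other kept-level pairs the DMSO level was a median of 2.42 higher in the TDCIPP table. A region of chromosome 4 at 62487025 to 62489187 rose from 6.65 to 7.33 with TDCIPP (adjusted p = 0.0484 in the authors' deposited table), and its DAC levels were 4.81 in DMSO and 5.63 treated.

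The other 4 of the 8 largest joint differences did not pass in the authors' deposited table for TDCIPP, with adjusted p from 0.0766 to 0.143. They lay on chromosome 20 at 26307418 to 26308475 (differences 0.57 and 0.95), an unplaced contig at 10731 to 11770 (0.57 and 0.62), chromosome 4 at 20116615 to 20118133 (0.52 and 0.66) and chromosome 13 at 43873412 to 43874611 (0.51 and 0.63).

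The 3 remaining members that passed for TDCIPP had DAC differences nearer the criterion. On chromosome 24 the region at 19518087 to 19519381 rose from 8.71 to 9.25 (adjusted p = 0.000335 in the authors' deposited table), with DAC levels of 5.66 and 6.08. On chromosome 2 the region at 49268467 to 49269739 rose from 7.0 to 7.68 (adjusted p = 0.00497 in the authors' deposited table), with DAC levels of 4.61 and 4.95. On chromosome 23 the region at 22071272 to 22073379 rose from 8.19 to 8.65 (adjusted p = 0.0123 in the authors' deposited table), with DAC levels of 5.73 and 6.17. Their unadjusted DAC p-values in the authors' deposited table, from 0.429 to 0.446, were far from the threshold.

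The members with the smallest DAC p had large DAC differences, and their TDCIPP differences ran from 0.30 to 0.47 (quartiles of all members 0.33 and 0.43). Their DAC control levels all lay below the lower quartile of the members, 4.53. The DAC control level enters the DAC difference, so these low levels follow in part from how the regions were picked. On chromosome 1, the region at 17440529 to 17441349 had DAC levels of 4.39 in DMSO and 5.82 treated, a difference of 1.43 (unadjusted p = 0.00172, adjusted p = 1 in the authors' deposited table), and TDCIPP levels of 7.20 and 7.63. A region on an alternate scaffold of chromosome 1 at 264024 to 264530, also the narrowest member at 507 bp, had DAC levels of 4.07 and 5.49 and TDCIPP levels of 7.13 and 7.43. On an alternate scaffold of chromosome 23, the region at 159767 to 162259 had DAC levels of 3.87 and 5.25 and TDCIPP levels of 7.05 and 7.52. The unadjusted DAC p-values of these 2 scaffold regions were 0.00211 and 0.00563 in the authors' deposited table, and neither passed adjustment.

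Members had a lower median control level than other kept-level pairs. Their median DMSO level in the TDCIPP table was 7.17 (quartiles 6.73 and 7.87), against 7.77 (7.18 and 8.56) over the other 11752 kept-level pairs. The difference of these medians, -0.61, was -0.28 when members were chosen after the median difference of each level class had been taken off. In the DAC table the medians were 4.93 and 5.36. The 344 TDCIPP-higher pairs that missed the DAC criterion had a median of 7.22 in the TDCIPP table, close to that of the members, and of 5.48 in the DAC table. A lower DMSO level belongs to the rule in part, because a rise at a given mean level lowers the control level. Mean level itself was also lower, with a median of 7.40 against 7.75 in the TDCIPP table. The share of members went from 2.70% of pairs in the lowest level class (6.5 to 6.81) to 0.838% in the highest (9.38 to 17.84). Over the same classes, the share meeting the DAC criterion went the other way, from 39.9% to 63.3%. The share meeting the TDCIPP criterion was 8.27% in the lowest class, 1.95% in class 9 and 5.87% in the highest.

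Members were about as wide as other pairs of the same level. Their median width in the TDCIPP table was 1365 bp (quartiles 1039 and 1966), against 1480 bp (1100 and 2008) over the other pairs. A wider region collects more reads, so width and level go together. Against the other pairs of its own level class, the median member was 16 bp narrower, and 91 of the 178 members were below their class median. Reads per kb, as level minus log2 of the width in kb, had a median of 7.05 in members and 7.28 in the other pairs in the TDCIPP table. The 2 tables drew the members' borders about as alike as those of other pairs, with 84.6% and 85.7% of the joint span shared at the median.

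Members lay at both ends of the width range. Members under 1 kb numbered 41 (23.0%, Clopper-Pearson interval 17.1 to 29.9), against 19.5% of the other pairs. Those 4 kb or wider numbered 10 (5.62%, interval 2.73 to 10.1), against 2.78%. Both intervals contain the share of the other pairs, for the wide members only just (lower bound 2.73 against 2.78%). The intervals treat regions as separate counts and are no test of a difference. Some of the wide members lie together in the runs on chromosomes 12 and 22. The second narrowest was a 510 bp region of chromosome 11 at 5716066 to 5716575, with levels of 8.85 and 9.20 for TDCIPP and 6.64 and 7.06 for DAC. The widest, at 64599 bp, lay on chromosome 20 at 25759406 to 25824004, and its levels were 11.06 and 11.54 for TDCIPP and 8.31 and 8.62 for DAC. The DAC table drew it at 59106 bp. Next came a region of 32459 bp on chromosome 22, the first of a run of members.

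**Figure D2:**
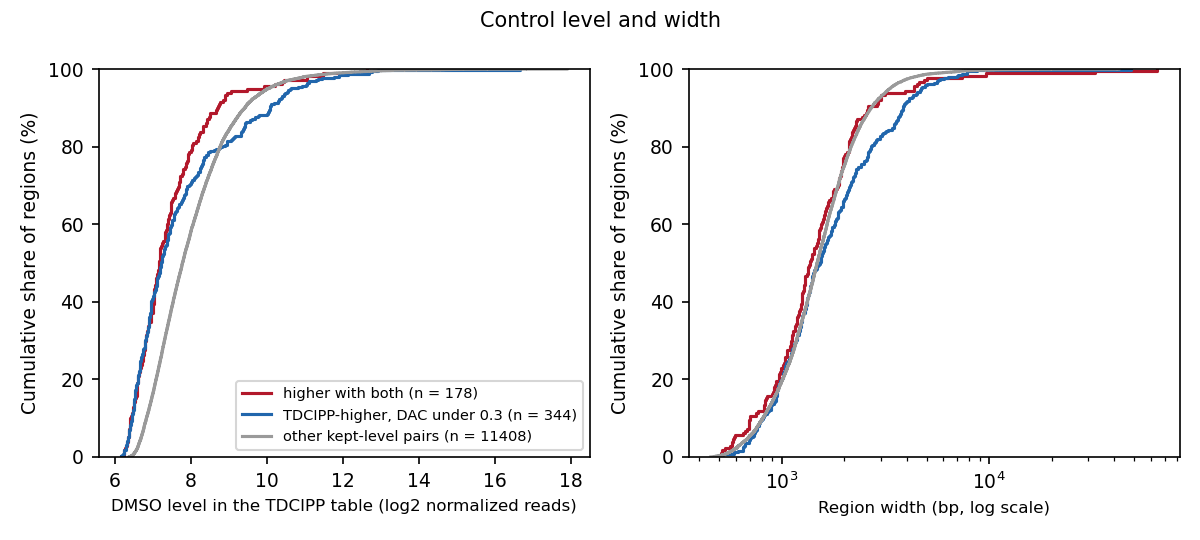
Cumulative share of regions (%) by DMSO level in the TDCIPP table (left, log2 normalized reads) and by region width in bp (right, log scale). Members (red) have a lower median control level, 7.17, than all 11752 other kept-level pairs, 7.77, though the ranges overlap widely. Other pairs are grey, with TDCIPP-higher pairs that missed the DAC criterion in blue. The width curves of members and grey pairs lie close together.

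The 10 members in the highest level class were wide, with a median width of 4796 bp against 2326 bp for the other pairs of that class. Of these 10, 8 lie in 3 runs of members on chromosomes 12 and 22, so the median rests on a few places. The 2 with the highest control level were a region of chromosome 12 and a region of chromosome 15 at 15190666 to 15194991. The chromosome 15 region had levels of 12.49 and 12.88 for TDCIPP (adjusted p = 0.0588 in the authors' deposited table) and of 7.97 and 8.76 for DAC. Its control level was 4.52 higher in the TDCIPP table than in the DAC table, a gap well above the median of 2.42 over the other pairs.

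The gap between the 2 control levels differed between members and the other TDCIPP-higher pairs. Summed normalized reads per library were 7.91 M in the DMSO group for TDCIPP and 1.88 M in that for DAC. The gap of a pair is therefore read only against that of other pairs. Among the 344 TDCIPP-higher pairs that missed the DAC criterion, 126 (36.6%) had a gap under 1, that is, a DAC-table control level unusually close to or above that of the TDCIPP table. Among members this held for 8 (4.49%), near the 3.62% of all kept-level pairs other than members. The median gap was 2.23 in members, 1.54 in those 344 pairs and 2.42 in the pairs other than members. It was -1.27 in the 78 pairs higher with TDCIPP and lower with DAC. The DAC control level enters both the gap and the DAC difference that sorts these pairs, so the contrast is a description without a test, and it was noticed after the values were seen.

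Members lay on all 25 chromosomes, on 16 alternate scaffolds and on 11 unplaced contigs. Chromosomes 22 and 4 held 17 each, chromosome 19 held 12 and chromosome 12 held 11. As a share of the kept-level pairs of a sequence, chromosome 22 had 5.28% (Clopper-Pearson interval 3.11 to 8.32), chromosome 12 had 3.70% (1.86 to 6.53) and chromosome 19 had 2.69% (1.40 to 4.65), against 1.49% of all. In the same order, their TDCIPP-higher shares were 8.39%, 5.72% and 4.48%, against 4.38% of all. Between 21 and 22 Mb of chromosome 22, 8 of 14 pairs were members, against 9 of 308 (2.92%) on its rest. This window was chosen after the data were seen and holds runs of members, so its high share follows in part from that choice. At the low end, chromosome 18 had 1 member of 274 pairs (0.365%), and chromosomes 3 and 15 had 0.496% each. These intervals treat regions as separate counts, although some members are neighbours.

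Unplaced contigs, which are sequences not yet assigned to a chromosome, had 12 members of 331 pairs (3.63%, interval 1.89 to 6.25), in 11 contigs. Their share of TDCIPP-higher pairs was likewise high, at 9.37% against 4.38% of all. Alternate scaffolds, which hold other haplotypes of placed sequence, had 16 members of 1032 pairs (1.55%), close to the share of all pairs. There the criteria moved apart, with 3.20% TDCIPP-higher and 66.0% DAC-higher. Some scaffold members resembled a member of the matching chromosome. For example, the member at 281288 on a scaffold of chromosome 13 and that at 18654765 on chromosome 13 were 1131 and 1125 bp wide. Their TDCIPP-table levels were 9.11 and 9.08, and each lay 4597 bp from the nearest kept-level pair. Whether such members are the same locus counted again was not tested, and they were not merged. The long arm of chromosome 4 is known for its repeats and late replication, and 11 of the 17 members of that chromosome lay beyond 30 Mb. Of the kept-level pairs there, 1.81% were members, against 2.14% before 30 Mb, so the far part held no larger share. Within 1 Mb of the outermost regions of the chromosomes lay 11 of 150 members (7.33%), against 9.89% of the other pairs.

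**Figure D3:**
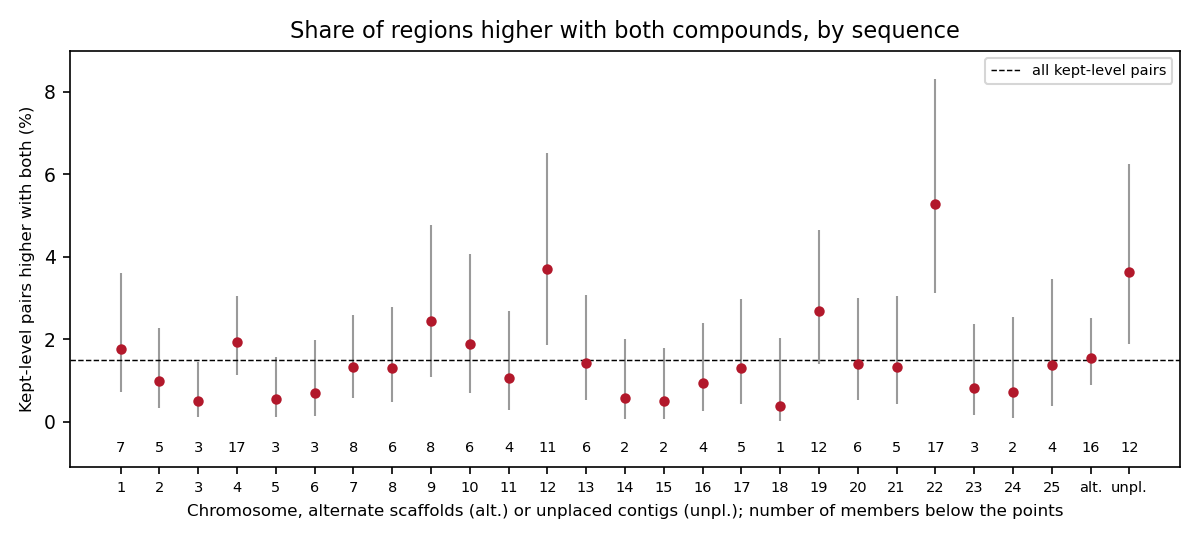
Share of kept-level pairs that were higher with both compounds (%), by chromosome and for alternate scaffolds and unplaced contigs, with 95% Clopper-Pearson intervals and the number of members under each point. Chromosome 22 is highest at 5.28%, and the dashed line is the 1.49% of all kept-level pairs.

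Most members stood alone, and a minority lay in runs. Joined within 50 kb, the 178 members made 158 places, of which 146 held a single member and 12 held 2 to 5. The 32 members in such places (18.0%) had a larger median width than the 146 single ones, 2020 against 1292 bp. Their median DMSO level in the TDCIPP table was also higher, 7.70 against 7.11. Of these 32, a run on chromosome 12 holds 4, and 2 runs on chromosome 22 hold 5 and 3. DMSO levels in these runs were 10.21 to 12.65, 7.42 to 10.44 and 8.33 to 10.4, in that order. Neighbours in a run are not separate observations, so both medians rest in part on a few places. Whether the contrast holds without these runs was not tested. Nearness to any kept-level pair was about as frequent for members (66.9% within 50 kb) as for the other pairs (69.4%). The 12 places hold 37 kept-level pairs, so 5 pairs lie among the members without being members. Of these 5, all had a TDCIPP difference above 0 and 4 a DAC difference above 0. Over all kept-level pairs, 86.35% had a DAC difference above 0, so nothing is read from the 4. In the TDCIPP table, 42.9% of regions at or above the level minimum and beyond 1000 kb of any member were above 0. With 5 pairs, in places defined by their members, nothing is read from the TDCIPP count either.

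The largest run lay on chromosome 22 from 21190756 to 21243700, with 5 members. Its first region, 32459 bp wide, had TDCIPP levels of 10.44 in DMSO and 10.79 treated and DAC levels of 8.19 and 8.83. The next 4, at 21229332, 21235279, 21238386 and 21243124, had TDCIPP differences from 0.32 to 0.47 and DAC differences from 0.42 to 0.71. None passed in the authors' deposited table for TDCIPP, where the lowest adjusted p of the run was 0.164. A second run of that chromosome, from 21913500 to 21933395, held 3 members, with TDCIPP differences from 0.32 to 0.43 and DAC differences from 0.56 to 0.70. The 2 runs together hold 8 of the 17 members of the chromosome.

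The run on chromosome 12, from 41377680 to 41408376, held 4 members and included the member with the highest control level in the TDCIPP table. Its regions were 4344 to 9655 bp wide, with DMSO levels from 10.21 to 12.65 in the TDCIPP table. Their TDCIPP differences were close together, from 0.35 to 0.41, and their DAC differences ran from 0.67 to 0.90. The region at 41398722 to 41408376 went from 12.65 to 13.04 with TDCIPP. Its paired DAC region, drawn at 41397656 to 41403576, went from 7.93 to 8.83, and the paired regions shared 45.3% of their joint span. The lowest TDCIPP adjusted p of the run was 0.0676, and the lowest unadjusted DAC p was 0.141, both in the authors' deposited tables.

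On chromosome 4, a run of 4 members from 55932211 to 55989777 had control levels of 6.69, 6.77, 6.25 and 8.23 in the TDCIPP table. The first 3 lie below the median of the other kept-level pairs and the last above it. Its TDCIPP differences were 0.35 to 0.50 and its DAC differences 0.37 to 0.49. The DAC table drew these regions wider, for example 4094 bp against 2184 bp for the one at 55967102. A second pair of members of that chromosome lay from 49412745 to 49454791, with differences of 0.32 with TDCIPP in both. Members of a run share their surroundings and are not separate observations.

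**Figure D4:**
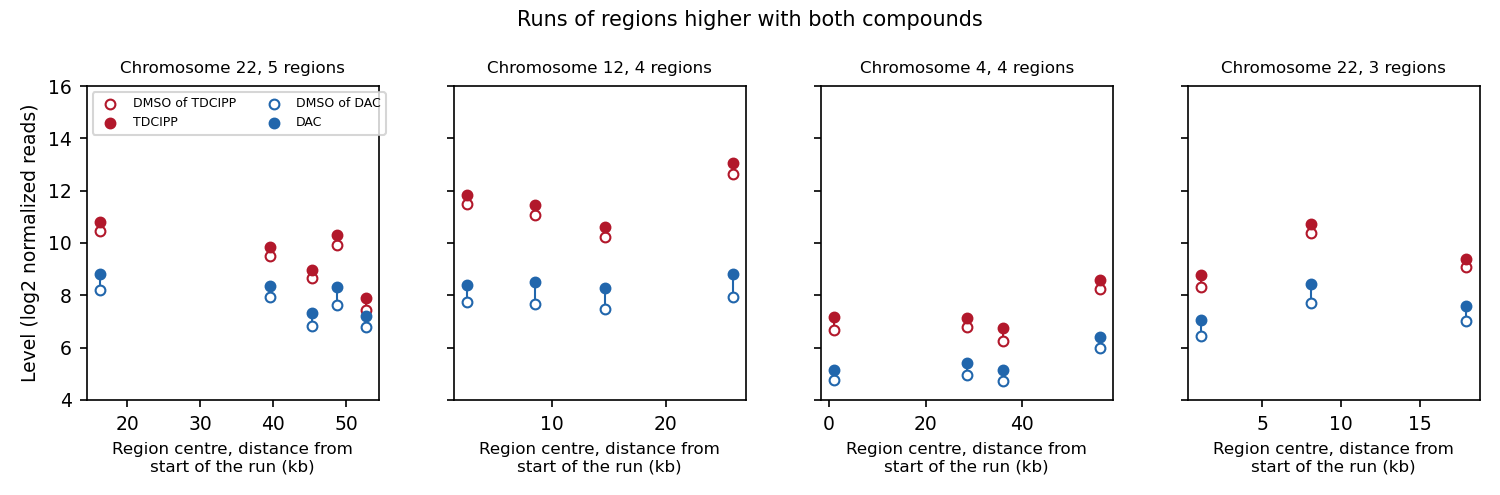
Levels (log2 normalized reads) of the members in the 4 places with at least 3 members, by distance of the region centre from the start of the run (kb). Open points are the DMSO groups and filled points the treated groups, for TDCIPP (red) and DAC (blue), and every filled point lies above its open point, as the rule requires.

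Regions that were not members but lay close to one also tended to be higher with TDCIPP. In the TDCIPP table, 66 other regions at or above the level minimum lay within 10 kb of a member, and their median difference was 0.18 (quartiles 0.08 and 0.26), with 55 of them (83.3%) above 0. At 10 to 50 kb the median was 0.04 over 230 regions, with 58.3% above 0. Beyond 1000 kb it was -0.03 over 11498 regions, with 42.9% above 0. Leaving out the surroundings of the 12 places with several members gave 0.15 over 52 regions within 10 kb. Nearby regions can share fragments and chromatin context, and no test over libraries was possible.

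For DAC the same neighbourhood stood out less in its median. Other regions at or above the DAC level minimum had a median difference of 0.29 within 10 kb of a member (72 regions), 0.26 at 10 to 50 kb and 0.23 beyond 1000 kb. The share above 0 was 90.3% within 10 kb against 75.8% beyond 1000 kb. Without the 12 places with several members, the median within 10 kb was 0.23 over 53 regions, the same as far from any member, and 88.7% were above 0. These comparisons by distance were chosen after the data were seen.

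**Figure D5:**
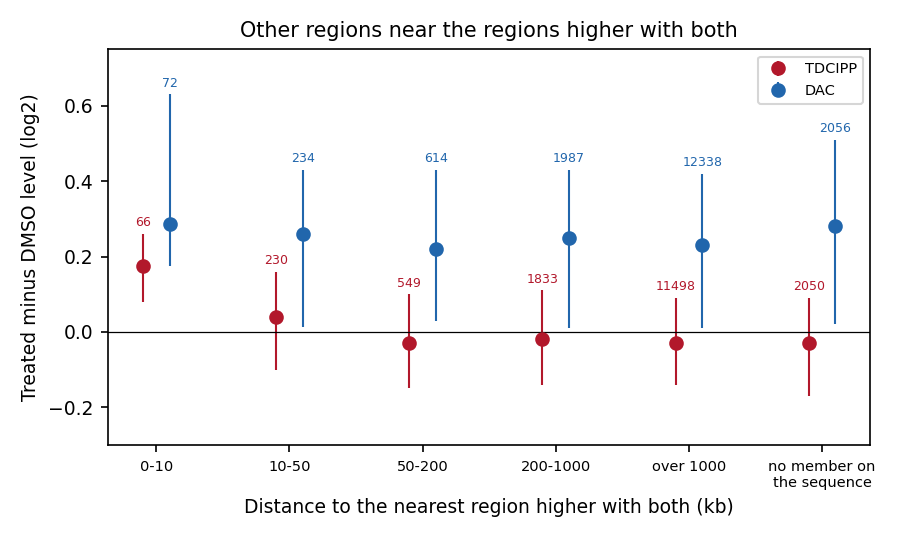
Treated minus DMSO level (log2) of regions that are not members, by distance in kb to the nearest member, for regions at or above the level minimum of each table. Points are medians, bars are quartiles and numbers are counts of regions. The TDCIPP median goes from 0.18 within 10 kb to -0.03 beyond 1000 kb, and the DAC median from 0.29 to 0.23.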

How the data were processed

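Per the submitters' processing notes, Bowtie2, Picard, MACS2, deepTools and DiffBind were used with build GRCz11. Not given in the sources used here are versions, Tn5 shift, duplicate handling, library scaling and the engine behind the p-values. The authors deposited 1 DiffBind table per compound, with group levels in log2 normalized reads, a log2 fold, and an unadjusted and an adjusted p-value per consensus region. Folds equalled treated minus DMSO levels within 0.01. The tables hold 0 columns of single libraries, so the planned count test was not run. Summed normalized reads per library were 7.75 M and 7.91 M (TDCIPP, DMSO) and 2.07 M and 1.88 M (DAC, DMSO), and the median region held 83.9 and 18.1 reads.

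Regions were paired by shared bases, largest overlap first, each used once, with pandas 2.3.3 in Python. Pairing and distances were tested on simulated regions. Intervals are 95% Clopper-Pearson (scipy 1.17.1). Named members are the 8 with the largest smaller difference, those called for TDCIPP, the 3 with the smallest DAC p, the 3 with the highest control level, the 2 widest and 2 narrowest, the 3 places with most members, and pairs beside each threshold. Members and rules were chosen with earlier results of these data known. Alternatives changed the thresholds, pairing, centring and sequences used. No sequence is printed, since no genome of the same build was used here.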

Additional observations from a re-analysis of the deposited data

How the results depend on the processing

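No paired analysis was possible because only group means were at hand, which also kept the planned omission of replicates and other count scalings from being run. The number of members depended on the thresholds: 637 with a difference minimum of 0.2, 9 with 0.5, 313 with level minima of 6 and 4, and 91 with 7 and 5. Centring each table on its median left 74, and taking off the median of each level class left 71. The share of TDCIPP-higher pairs that were DAC-higher was 51.4% at a minimum of 0.2 (other pairs 68.1%), 15.3% at 0.5 (22.4%), 11.1% with centred differences (12%) and 10.7% with level-class differences (12%). Without places of several members it was 29.8%. That fall is fixed by construction, since only members were left out there, and nothing is read from it. After centring, which also moves the cutoffs, the shares were thus close to those of other pairs. The median DMSO level of members minus that of other pairs, -0.61, went to -0.98 at a minimum of 0.5 and to -0.28 with level-class differences. At a minimum of 0.5, 0.0% of the 9 members lay on alternate scaffolds. The share of members with another within 50 kb was 27.0% with centred differences and 12.4% within 10 kb. An adjusted p under 0.1 in the authors' deposited table for TDCIPP gave 22 called members. The share of all regions called at that threshold was not counted. The folds that chose the members also enter this p, so nothing is read from the rise in count. The other 41 of 58 alternatives stayed within 1.5 times of a count or within the counting interval of a share or median, and none changed sign. Use of the deposited fold column, the level-class, single-place and place-free alternatives and the control-gap, neighbour and position results were chosen after seeing the data. The cause of these shifts was not tested beyond what each alternative changes by construction. Normalized reads in the median region were 18.1 for DAC and 83.9 for TDCIPP, over different sets of regions, and the effect of depth on the DAC differences was not tested.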
